A study of Mus musculus with 18 samples.

Results

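*Ptp4a1*, *D6Ertd527e*, *Lgalsl*, *Amd1* and *Slc33a1* are 5 mouse genes of 53715 in the count table that were selected on measured values of these libraries. They were chosen for large differences between oocytes of primordial and primary follicles *in vivo*, or for culture effects that differed between these stages. Their values in the follicle oocytes are therefore given as a description, also where the calls of a fit over all genes are counted. Tests of the genes that can be read as such come only from metaphase II (MII) oocytes, which the selection did not use. All 5 genes passed the filter of at least 10 reads in total, both in the follicle libraries and in the MII libraries.

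RNA was sequenced from 18 libraries of C57Bl/6j x CBA/J mouse oocytes, 3 in each of 6 groups, all from hybrid mice of these strains with no engineered allele named in the labels. The *in vivo* follicle oocytes came from ovaries of 14-day-old mice, and the *in vitro* follicle oocytes from ovaries taken at day 7 after birth and cultured for 7 days with follicle stimulating hormone and serum. MII oocytes of the *in vivo* group were ovulated by gonadotropin-stimulated adult mice, and those of the *in vitro* group came from 7-day-old ovaries cultured for 7 days, followed by 12 days of culture of isolated follicles and release with human chorionic gonadotropin. Each library is a pool of oocytes, and the labels do not tie the replicates to animals, so that p-values measure only the spread between these pools. Follicle oocytes were cut from sections by laser capture microdissection (LCM), and their RNA was amplified and captured on exon probes, whereas MII libraries were made by the Smart-seq II method. Because preparation changed together with stage, their effects cannot be told apart, and MII libraries were not tested against LCM libraries.

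A primordial follicle holds a small, dormant oocyte within a layer of flat cells. On activation these cells become cuboidal, the follicle is called primary, and the oocyte begins to grow and to store the RNA and protein that the egg and early embryo will use. The 5 genes belong to different branches of cell physiology. *Ptp4a1* encodes PRL-1, a prenylated membrane phosphatase that binds the CNNM magnesium transport proteins. *Amd1* encodes S-adenosylmethionine decarboxylase, which supplies the aminopropyl groups of the polyamines spermidine and spermine. *Slc33a1* encodes the transporter that carries acetyl-CoA into the endoplasmic reticulum. *Lgalsl* encodes a galectin-related protein, and *D6Ertd527e* keeps the name of a mapped DNA segment.

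On GRCm38 (GENCODE M21), *Ptp4a1* lies at chr1:30940302-30949309 on the minus strand with 5 exon blocks, and *Slc33a1* at chr3:63933507-63964768 on the minus strand with 7 exon blocks. *D6Ertd527e* lies at chr6:87104746-87112997 on the plus strand with 4 exon blocks, *Amd1* at chr10:40287458-40302186 on the minus strand with 8, and *Lgalsl* at chr11:20823576-20831056 on the minus strand with 5. Reads of *Amd1* are uncertain, because 78.1% of its 50-base exon windows occur in another gene, and 76.7% of all its windows occur in its copy *Amd2*. The share was 30.7% for *Slc33a1*, through the antisense gene *Gm26850*, 8.55% for *Ptp4a1*, through pseudogenes, 2.33% for *Lgalsl* and 0% for *D6Ertd527e*. A second gene entry that is also named *Ptp4a1* covers all 9008 bases of the first on the same strand. This entry was left out of the share and is not in the count table. *Gm26850* had 0 reads in all 12 LCM libraries, but 65, 0 and 0 reads in MII oocytes *in vivo* and 84, 65 and 60 *in vitro*. Whether the counting used strand is not given in the sources used here.

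The promoter sequences of all 5 genes are shown because 4 of the genes were high where *Slc33a1* was low in the *in vivo* follicle oocytes. They hold the 250 bases before each RefSeq start site on GRCm38.p6, written 5′ to 3′ on the strand of the gene. Capitals mark the TATA box core TATAA, the CCAAT box, the E-box CACGTG and the core of the cyclic AMP response element TGACGT on either strand, so that ATTGG is a CCAAT box read from the other strand. TATAA overlapped with itself on both strands in *Amd1*, TAATTG was also searched and had no match, and the motif letters were chosen after the sequences had been seen.
Ptp4a1 (chr1:30949756-30950005, minus strand): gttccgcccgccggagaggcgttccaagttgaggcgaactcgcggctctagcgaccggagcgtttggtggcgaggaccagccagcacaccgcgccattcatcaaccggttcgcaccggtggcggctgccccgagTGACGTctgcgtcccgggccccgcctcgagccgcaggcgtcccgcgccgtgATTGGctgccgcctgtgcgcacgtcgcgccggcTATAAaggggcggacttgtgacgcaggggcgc
Amd1 (chr10:40302189-40302438, minus strand): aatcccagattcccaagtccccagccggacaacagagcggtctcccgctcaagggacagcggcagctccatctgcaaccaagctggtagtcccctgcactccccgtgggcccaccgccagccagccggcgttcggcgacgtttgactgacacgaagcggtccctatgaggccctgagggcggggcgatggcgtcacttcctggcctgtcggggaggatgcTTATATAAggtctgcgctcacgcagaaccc
Lgalsl (chr11:20831109-20831358, minus strand): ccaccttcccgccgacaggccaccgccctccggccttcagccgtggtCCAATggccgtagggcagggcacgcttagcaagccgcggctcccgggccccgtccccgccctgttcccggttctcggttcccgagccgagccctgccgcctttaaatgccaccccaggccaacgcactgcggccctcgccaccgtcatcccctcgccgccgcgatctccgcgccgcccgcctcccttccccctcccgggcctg
D6Ertd527e (chr6:87104496-87104745, plus strand): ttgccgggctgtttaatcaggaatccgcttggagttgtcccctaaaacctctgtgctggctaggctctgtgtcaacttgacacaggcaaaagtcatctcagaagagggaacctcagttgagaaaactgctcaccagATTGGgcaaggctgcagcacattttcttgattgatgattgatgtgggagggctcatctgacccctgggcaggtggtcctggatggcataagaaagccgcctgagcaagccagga
Slc33a1 (chr3:63964734-63964983, minus strand): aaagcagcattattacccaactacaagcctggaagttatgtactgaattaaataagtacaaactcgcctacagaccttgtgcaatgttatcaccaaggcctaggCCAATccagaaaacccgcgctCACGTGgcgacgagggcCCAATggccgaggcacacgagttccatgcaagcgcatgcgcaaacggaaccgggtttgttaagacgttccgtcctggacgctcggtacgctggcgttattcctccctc

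TATAA stood at 32 bases before the start in *Ptp4a1*, and in *Amd1* at 27 bases on the strand of the gene and at 30 on the other. It was in 22.8% of all 32851 promoters of the same length. CCAAT was in 4 of the 5 promoters, all but that of *Amd1*, and in 33.8% of all promoters. CACGTG was found in *Slc33a1*, at 125 bases before the start, and in 6.02% of all promoters, whereas TGACGT was found in *Ptp4a1* and in 6.47%. TAATTG was in 7.17% of all promoters. The broader E-box pattern CANNTG, with any base at N, was also searched and is not marked by capitals. It had 3 matches in *D6Ertd527e*, 1 in *Amd1* and 1 in *Slc33a1*, the last at the CACGTG site, and was in 66.2% of all promoters. The promoters of *Lgalsl* and *Ptp4a1* were rich in G and C, at 74.4% and 71.2%, against 52.0% in *D6Ertd527e* and 52.4% in *Slc33a1*. No motif was shared by the 4 genes that were high in primary follicle oocytes and absent from *Slc33a1*. A match describes the letters only and is not evidence that a factor binds there.

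LCM libraries held 15149564 to 29205503 counted reads each, and MII libraries 7334817 to 9978830. LCM libraries varied widely: Spearman correlations between replicates were 0.219 to 0.741 in the LCM groups and 0.843 to 0.911 in the MII groups, and 6048 to 13755 genes had a read in an LCM library. A gene at 1000 or more reads in 1 LCM library was often at 20 or fewer in another. This was so for 6514 of the 7596 genes that reached 1000 reads, or 85.8%, and all 5 genes described here were among them. Within the 3 libraries of a group, such a jump occurred for *D6Ertd527e*, *Lgalsl* and *Amd1* in cultured primordial follicle oocytes and for *Amd1* in primary follicle oocytes *in vivo*. It occurred for 54.0% and 59.8% of all genes that reached 1000 reads in these groups, in this order. Counts of 3 reads or fewer in a library were taken as the floor of detection.

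The label of oocyte was checked with 13 oocyte markers, whose summed level in TPM (transcript abundance scaled for gene length and sequencing depth) was 325 to 1953 in LCM libraries and 10408 to 21057 in MII libraries. *Gdf9*, the growth factor of growing oocytes, had 15 to 135 reads in primordial follicle oocytes *in vivo* and 1087 to 1576 in primary follicle oocytes *in vivo*. In cultured primordial follicle oocytes *Gdf9* had 32, 7061 and 5 reads, so that replicate 2 stood apart. RNA of other cells was also present in LCM libraries. The 9 markers of granulosa cells, which surround the oocyte, summed to 21.9 to 1937 TPM, and exceeded the oocyte sum in replicate 3 of the cultured primordial follicle oocytes (996 against 511 TPM) and in replicates 2 and 3 of the cultured primary follicle oocytes (657 against 500 TPM and 1937 against 542 TPM). The 8 theca and stroma markers summed to 195 to 28868 TPM, the highest in replicate 2 of the primary follicle oocytes *in vivo*. In that group 2 of the 8 were at 0 in all 3 libraries. The sum exceeded the oocyte sum in primordial replicates 1 (1392 against 426 TPM) and 2 (1561 against 922 TPM) *in vivo*. It also did so in primary replicate 2 *in vivo* (28868 against 609 TPM). In culture it did so in primordial replicates 1 and 3 and primary replicates 2 and 3. The blood, immune and endothelial sum did so in primary replicates 1 and 2 *in vivo* (7503 against 779 TPM and 2368 against 609 TPM). Each list was below the oocyte sum in the LCM libraries not named for it. In the bulk libraries, fewer cells of a type and less RNA per cell cannot be told apart.

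**Figure D1:**
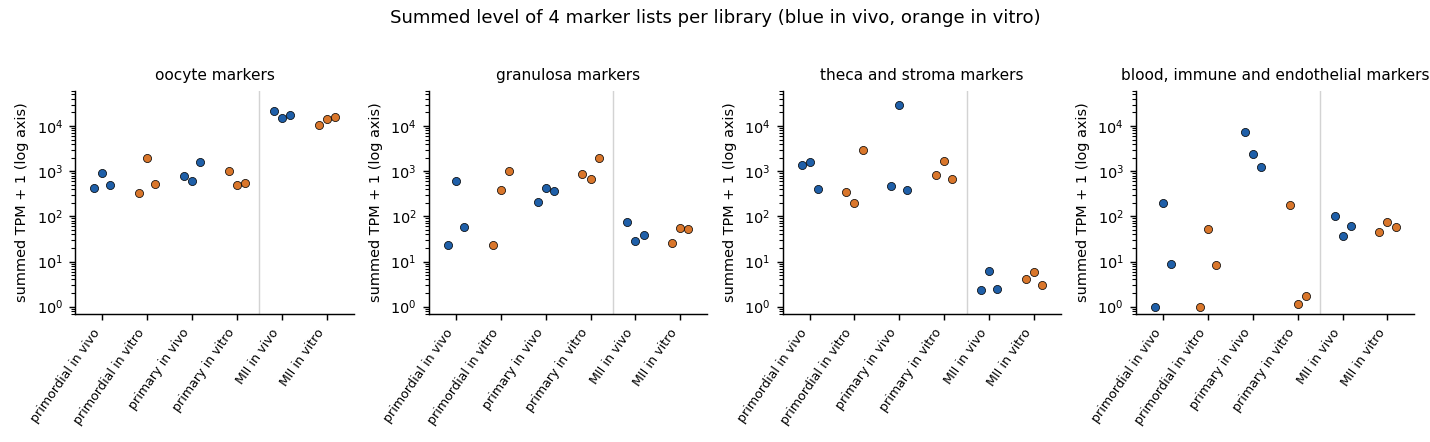
Summed TPM + 1 on a log axis for 4 marker lists, with 1 point per library, 3 per group, blue for *in vivo* and orange for *in vitro*; the vertical line separates LCM from MII oocytes. Blood, immune and endothelial markers sat at 1226 to 7503 TPM in primary follicle oocytes *in vivo*, above the 0 to 200 TPM of primordial follicle oocytes *in vivo*. A hemoglobin gene, *Hba-a1* or *Hbb-bs*, was the highest of them in each of these primary libraries. In both groups 0 of the 6 markers were above the floor of 3 reads in every library.

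*Ptp4a1* was nearly silent in primordial follicle oocytes *in vivo* and abundant in most libraries of the other groups. Primordial follicle oocytes *in vivo* had 8, 15 and 9 reads in replicates 1 to 3, and primary follicle oocytes *in vivo* had 26314, 9485 and 8974. All primary libraries stood above all primordial libraries. The mean was 802 ± 639 CPM (read count scaled for sequencing depth by TMM normalization, SD, n = 3) against 0.456 ± 0.107, a ratio of 1757, and the fitted log2 fold change was 10.76 with a standard error (SE) of 2.48. Cultured primordial follicle oocytes had 30050, 82 and 5996 reads. Replicate 2 of that group stood far below the others but still above the *in vivo* libraries. The groups did not overlap in this direction for 2.04% of all genes tested. The cultured mean of *Ptp4a1* was 818 ± 1172 CPM, a fitted log2 fold change of 10.79 (SE 2.48) over *in vivo*. Leaving out cultured replicate 1 lowered this value to 8.31. Cultured primary follicle oocytes had 11071, 5430 and 2376 reads, a mean of 223 ± 144 CPM.

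*Amd1* showed the fewest reads of the 5 genes in primordial follicle oocytes *in vivo*, with 0, 2 and 0, so that no library exceeded the floor. Primary follicle oocytes *in vivo* had 23392, 4575 and 19 reads. The groups did not overlap, but replicate 3 of the primary group was close to the primordial libraries, and 88.1% of the summed CPM came from replicate 1. The mean of 517 ± 741 CPM was at least 3912-fold higher than the primordial group, taken at the floor of 3 reads per library. The fitted log2 fold change was 14.01 (SE 3.65), and 11.53 without replicate 1 of the primary group. Cultured primordial follicle oocytes had 0, 2835 and 8 reads. Here 1 library carried the group, and the mean of 35.1 ± 60.4 CPM was at least 265-fold higher than *in vivo*, with a fitted log2 fold change of 10.12 (SE 3.21) that became 2.68 without replicate 2. Cultured primary follicle oocytes were even among themselves, with 1675, 2246 and 2334 reads. Its copy *Amd2* was listed at 0 in 11 of the 12 LCM libraries and at 3 reads in the other. Cultured primordial replicate 2, which carried its group for *Amd1*, also had 7061 *Gdf9* reads, against 32 and 5 in replicates 1 and 3. The part of this difference between libraries in the result was not tested.

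*Slc33a1* ran opposite to the other 4 genes between primordial and primary follicle oocytes *in vivo*. Primordial follicle oocytes *in vivo* had 970, 2896 and 31286 reads, and primary follicle oocytes *in vivo* had 1, 8 and 7. All primordial libraries were above all primary libraries, although replicate 3 held 91.6% of the summed CPM of its group. The means were 594 ± 900 CPM in primordial and 0.253 ± 0.171 CPM in primary follicle oocytes, a 2344-fold lower level in the latter, and the fitted log2 fold change was -11.16 (SE 3.37), or -8.17 without replicate 3 of the primordial group. In culture, primordial follicle oocytes had 0, 1 and 1 reads of *Slc33a1*. Their level was at least 3775-fold lower than *in vivo*, with a fitted log2 fold change of -14.03 (SE 3.70), or -11.06 without replicate 3 *in vivo*, which held most of that group's CPM. *Slc33a1* was thus 1 of 14 genes, or 0.0914% of the 15317 tested, with at least 100 reads in each primordial library *in vivo* and at most 3 in each cultured primordial library. Cultured primary follicle oocytes had 435, 22 and 49 reads, a mean of 5.54 ± 7.46 CPM.

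*Lgalsl* had 14, 7 and 1 reads in primordial follicle oocytes *in vivo* and 40953, 61 and 1726 reads in primary follicle oocytes *in vivo*. The groups did not overlap, but the primary libraries ran from 2.45 to 2391 CPM. The mean of 829 ± 1353 CPM against 0.304 ± 0.277 CPM gave a ratio of 2728 and a fitted log2 fold change of 11.38 (SE 2.94), which became 7.28 without replicate 1 of the primary group. Cultured primordial follicle oocytes had 0, 2 and 11289 reads. Replicates 1 and 2 were at or under the floor and replicate 3 was far above every *in vivo* library. The fitted log2 fold change of 9.20 (SE 2.71) over *in vivo* rested on replicate 3, and without it the value was -2.76. Cultured primary follicle oocytes had 993, 2 and 137 reads, a mean of 12.2 ± 17.5 CPM.

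*D6Ertd527e* had 1, 1 and 4 reads in primordial follicle oocytes *in vivo* and 14340, 1594 and 13986 in primary follicle oocytes *in vivo*. The lowest primary library was far above the highest primordial library. The means were 554 ± 426 and 0.0962 ± 0.0974 CPM, a ratio of 5756, and the fitted log2 fold change was 12.44 (SE 2.62). Cultured primordial follicle oocytes had 2, 52622 and 12878 reads, so that replicate 1 stayed at the *in vivo* level while replicates 2 and 3 were within or above the range of the primary libraries. The fitted log2 fold change over *in vivo* was 13.06 (SE 2.67), and 11.60 without replicate 2. Cultured primary follicle oocytes had 22102, 6972 and 12983 reads. After scaling, at 301 to 719 CPM, they lay within the 64.0 to 837 CPM of the primary libraries *in vivo*. In the cultured primordial libraries *Gdf9* had 32, 7061 and 5 reads, and the part of this difference in the result for *D6Ertd527e* was not tested.

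**Figure D2:**
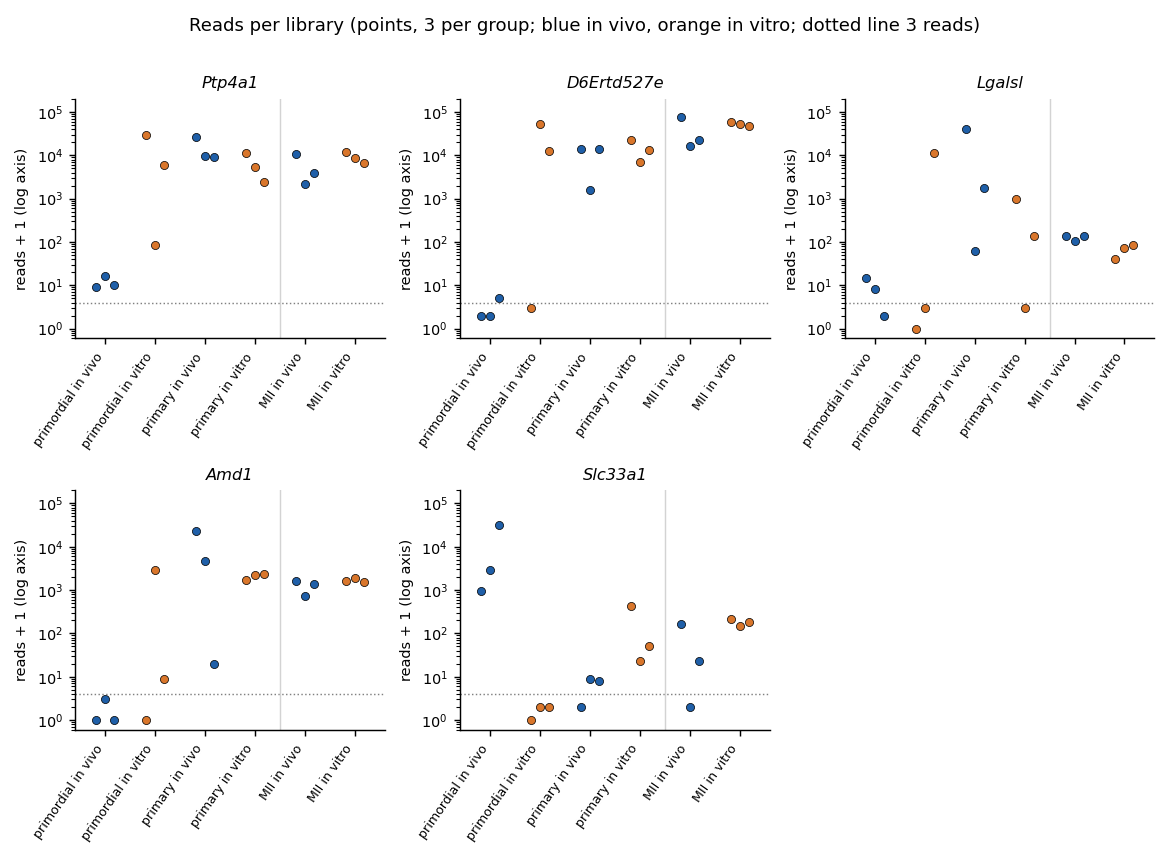
Reads + 1 per library on a log axis for the 5 genes, with 1 point per library and 3 per group, blue for *in vivo* and orange for *in vitro*; the dotted line marks the floor of 3 reads and the vertical line separates LCM from MII oocytes. In primordial follicle oocytes *in vivo*, *Slc33a1* was high and the other 4 genes were near the floor. In cultured primordial follicle oocytes *Slc33a1* was under the floor in every library, and *D6Ertd527e*, *Lgalsl* and *Amd1* had both high and near-zero libraries.

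Between primordial and primary follicle oocytes *in vivo*, 4 of the 5 genes were higher in every primary library, a pattern of 2.36% of all genes tested, and 1 of 5 was lower in every primary library, a pattern of 4.02%. In the edgeR fit over all genes (quasi-likelihood), *Ptp4a1* and *D6Ertd527e* were among 8 called genes, 0.0522% of 15317. DESeq2 called 5 of the 5 and 557 genes in all, or 3.64%. Because the genes were chosen on this contrast, these counts follow from the choice and nothing is read from them. By edgeR neither *Ptp4a1* nor *D6Ertd527e* was called once any 1 of the 3 primordial libraries *in vivo*, or replicate 1 or 3 of the cultured primary libraries, was left out. Blood, immune and endothelial markers moved with the same contrast, from 0 to 200 TPM in the primordial to 1226 to 7503 TPM in the primary libraries *in vivo*. The hemoglobin genes *Hba-a1* and *Hbb-bs* led them, 2 of the 6 markers were at 0 in all 3 primary libraries and 3 of the 6 in all 3 primordial libraries, and their part in the result was not tested.

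The effect of culture differed between the stages by fitted log2 values of -12.64 (SE 2.92) for *Ptp4a1*, -13.29 (SE 2.95) for *D6Ertd527e*, -15.28 (SE 3.59) for *Lgalsl* and -12.92 (SE 3.89) for *Amd1*. For *Slc33a1* the difference was 18.45 (SE 4.44). Without 1 library the values were -3.38 for *Lgalsl* (without cultured primordial replicate 3), -5.48 for *Amd1* (without cultured primordial replicate 2), -10.16 for *Ptp4a1* (without cultured primordial replicate 1) and 15.48 for *Slc33a1* (without primordial replicate 3 *in vivo*). The mean CPM of *Ptp4a1*, *D6Ertd527e*, *Lgalsl* and *Amd1* was higher after culture at the primordial stage and lower at the primary stage, and that of *Slc33a1* was the reverse. At the primordial stage the direction for *Lgalsl* and the size for *Amd1* rested on 1 cultured library, and for *Lgalsl* a cultured library was the higher in only 4 of the 9 pairs of libraries.

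At the primary stage the fitted log2 fold changes of culture were -1.85 (SE 1.69) for *Ptp4a1*, -0.22 (SE 1.63) for *D6Ertd527e*, -6.08 (SE 2.37) for *Lgalsl*, -2.79 (SE 2.31) for *Amd1* and 4.42 (SE 2.53) for *Slc33a1*. Without replicate 1 of the primary follicle oocytes *in vivo*, the values were -0.96 for *Ptp4a1*, 0.20 for *D6Ertd527e*, -1.98 for *Lgalsl* and -0.31 for *Amd1*. The value of *Slc33a1* was 2.26 without cultured primary replicate 1. Blood, immune and endothelial markers also moved with culture at this stage, from 1226 to 7503 TPM *in vivo* to 0.138 to 174 TPM *in vitro*. A hemoglobin gene, *Hba-a1* or *Hbb-bs*, was the highest of them in each *in vivo* library. Of the 6 markers, 2 were at 0 in every library of either group, and 0 were above the floor in every library. Granulosa markers moved the other way, from 211 to 415 TPM *in vivo* to 657 to 1937 TPM *in vitro*, with 2 of the 9 at 0 in all 3 *in vivo* libraries and 1 of the 9 in all 3 *in vitro* libraries. The part of either list in the result was not tested.

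In the edgeR fit, 4 of the 5 genes, all but *Amd1*, were among 16 called genes for the interaction, 0.104% of all tested, and *Ptp4a1* and *D6Ertd527e* among 5 called for culture at the primordial stage, 0.0326%. DESeq2 called 5 of the 5 for the interaction (3.62% of all genes) and 5 of the 5 for culture at the primordial stage (5.3%). The genes were chosen for these differences, so that the counts follow from the choice and nothing is read from them. No member was called by edgeR for the interaction in 7 of the 12 fits that left out 1 library, namely any primordial library *in vivo*, primary replicate 3 *in vivo* or any cultured primary library. For culture at the primordial stage edgeR called no member without any 1 of the primordial libraries *in vivo* or without cultured primary replicate 1 or 3. For culture at the primary stage, edgeR called 0 of the 5 and 0% of all genes, with 1479 genes at an unadjusted p under 0.05, and DESeq2 called 254 genes, 1.66%, none of them among the 5. Stage *in vivo*, culture at the primordial stage and the interaction share the primordial libraries *in vivo*.

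Within culture, the primary minus primordial differences were -1.88 (SE 1.69) for *Ptp4a1*, -0.85 (SE 1.64) for *D6Ertd527e*, -3.90 (SE 2.13) for *Lgalsl*, 1.09 (SE 2.19) for *Amd1* and 7.29 (SE 2.91) for *Slc33a1*, as fitted log2 fold changes. The direction of the first 3 and the size for *Amd1* each rested on 1 cultured primordial library, since the values became 0.60 without replicate 1 for *Ptp4a1*, 0.61 without replicate 2 for *D6Ertd527e*, 8.03 without replicate 3 for *Lgalsl* and 8.52 without replicate 2 for *Amd1*. For *Slc33a1* all 3 cultured primary libraries exceeded all 3 cultured primordial libraries, as for 9.87% of all genes tested. The mean was at least 35.2-fold higher, with 85.1% of the summed CPM in cultured primary replicate 1. Without that library its log2 value was 5.13. edgeR called 0 of the 5 genes and 0% of all genes in this comparison, with 1673 genes at an unadjusted p under 0.05, and DESeq2 called 450 genes, 2.94%, 1 of them among the 5.

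**Figure D3:**
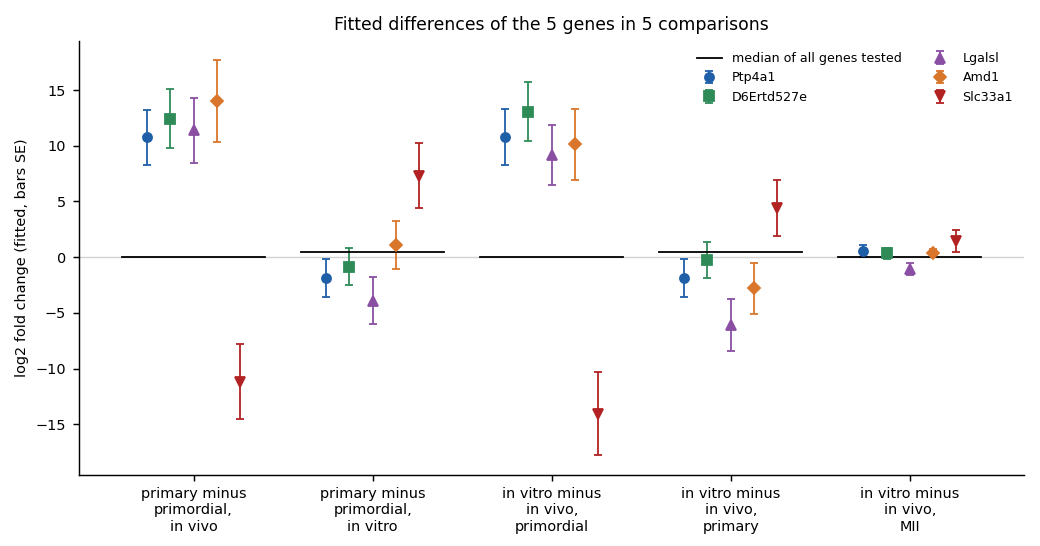
Fitted log2 fold changes of the 5 genes with their SE as bars, in 5 comparisons named on the horizontal axis, with the median of all genes tested as a black line. *Slc33a1* at -11.16 and the other 4 genes at 10.76 to 14.01 stood apart for primary minus primordial *in vivo*, whereas the MII differences lay between -1.06 and 1.42.

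By length-scaled level, *D6Ertd527e* was the highest of the 5 genes in MII oocytes, at 5979.9 ± 304 TPM *in vitro* and 4631 ± 3633 TPM *in vivo*, ranks 20 and 25 of 28252 genes by mean TPM. Its next groups were primordial and primary follicle oocytes *in vitro* at 1129 ± 1305 and 792 ± 483 TPM and primary follicle oocytes *in vivo* at 692 ± 539 TPM. These 5 groups overlapped with their neighbours in the order, and primordial follicle oocytes *in vivo*, at 0.115 ± 0.0954 TPM, did not. The order for *Ptp4a1* ran from 424 ± 74.0 TPM in MII oocytes *in vitro*, through 423 ± 596 in cultured primordial, 395 ± 230 in *in vivo* primary, 288 ± 220 in *in vivo* MII and 151 ± 116 in cultured primary oocytes, to 0.261 ± 0.0937 TPM in primordial follicle oocytes *in vivo*. Again only the step to the last group was free of overlap.

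*Lgalsl* was highest in primary follicle oocytes *in vivo* at 505 ± 803 TPM, then in cultured primordial at 142 ± 246, cultured primary at 13.0 ± 19.1, MII *in vivo* at 9.28 ± 0.714, MII *in vitro* at 4.47 ± 2.04 and primordial *in vivo* at 0.256 ± 0.231 TPM. Unlike *D6Ertd527e*, it was low in both MII groups, and the neighbours that did not overlap were the last 3. *Amd1* ran from 376 ± 505 TPM in primary follicle oocytes *in vivo*, through 130 ± 21.6 and 104 ± 31.5 in MII oocytes *in vitro* and *in vivo*, 78.1 ± 8.41 in cultured primary and 31.4 ± 54.2 in cultured primordial, to 0.0267 ± 0.0462 in primordial *in vivo*, with overlap at every step. *Slc33a1* was highest in primordial follicle oocytes *in vivo* at 450.5 ± 647 TPM, which did not overlap with MII *in vitro* at 13.8 ± 2.15. Cultured primary at 6.76 ± 9.52, MII *in vivo* at 4.95 ± 6.96, primary *in vivo* at 0.245 ± 0.181 and cultured primordial at 0.0256 ± 0.0228 TPM followed, each overlapping with the next. MII and LCM levels come from different library preparations.

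In MII oocytes, grown *in vitro* or *in vivo*, the 5 genes could be tested apart from their selection, and none was called. By edgeR's quasi-likelihood test 0 of the 5 passed, against 60 of 17144 genes, or 0.35%. DESeq2 also called 0 of the 5, against 2.05% of all genes. By edgeR 0 of the 5 had an unadjusted p under 0.05, against 10.2% of all genes. *Ptp4a1* had 11013, 2153 and 3892 reads *in vivo* and 12113, 8619 and 6568 *in vitro*, or 659 ± 574 and 985 ± 365 CPM. The groups overlapped, and the log2 fold change *in vitro* over *in vivo* was 0.58 (SE 0.52, 95% interval -0.54 to 1.70, edgeR adjusted p = 0.741, two-sided exact permutation p = 0.3).

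*D6Ertd527e* had 75629, 16225 and 23097 reads *in vivo* and 57439, 52349 and 48475 *in vitro*, or 4456 ± 3977 and 5681 ± 883 CPM. The *in vitro* libraries lay between the highest and the second *in vivo* library, and the log2 fold change was 0.35 (SE 0.52, interval -0.76 to 1.46, edgeR adjusted p = 0.875, exact permutation p = 0.4). *Amd1* had 1587, 717 and 1411 reads *in vivo* and 1627, 1895 and 1507 *in vitro*, or 140 ± 52.0 and 179 ± 9.89 CPM. The groups overlapped, and the log2 fold change was 0.35 (SE 0.35, interval -0.39 to 1.09, edgeR adjusted p = 0.777, exact permutation p = 0.4).

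*Lgalsl* had 136, 105 and 139 reads *in vivo* and 39, 71 and 84 *in vitro*, or 14.4 ± 1.83 and 6.88 ± 2.45 CPM. Every *in vitro* library was below every *in vivo* library, as for 6.81% of all genes tested, and the log2 fold change was -1.06 (SE 0.54, interval -2.22 to 0.10, edgeR adjusted p = 0.504). The two-sided exact permutation p was 0.1, the smallest that 3 against 3 libraries allow. *Slc33a1* had 163, 1 and 22 reads *in vivo* and 210, 145 and 184 *in vitro*, or 7.29 ± 10.6 and 19.6 ± 5.40 CPM. Replicate 1 *in vivo* was within the *in vitro* range while replicates 2 and 3 were far lower. The log2 fold change was 1.42 (SE 0.99, interval -0.70 to 3.55, edgeR adjusted p = 0.626, exact permutation p = 0.2). The antisense gene *Gm26850* had 65, 0 and 0 reads *in vivo* and 84, 65 and 60 *in vitro*. Since it shares exon windows with *Slc33a1*, some of these reads may belong to either gene.

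Replicate 1 of the *in vivo* MII oocytes was the highest of its group for *Ptp4a1*, *D6Ertd527e*, *Amd1* and *Slc33a1*. Without it, edgeR called 3 of the 5 genes higher *in vitro* and 378 of 16779 genes in all, or 2.25%, with the remaining *in vitro* and *in vivo* libraries at 3 against 2. The log2 fold changes then were 1.58 for *Ptp4a1* (adjusted p = 0.0436), 1.39 for *D6Ertd527e* (adjusted p = 0.0219) and 3.99 for *Slc33a1* (adjusted p = 0.0484). Leaving out any of the other 5 MII libraries called 0 of the 5, and the value of *D6Ertd527e* became -0.01 without replicate 2 *in vivo*. Whether replicate 1 or the other *in vivo* libraries stand for the group was not tested.

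**Figure D4:**
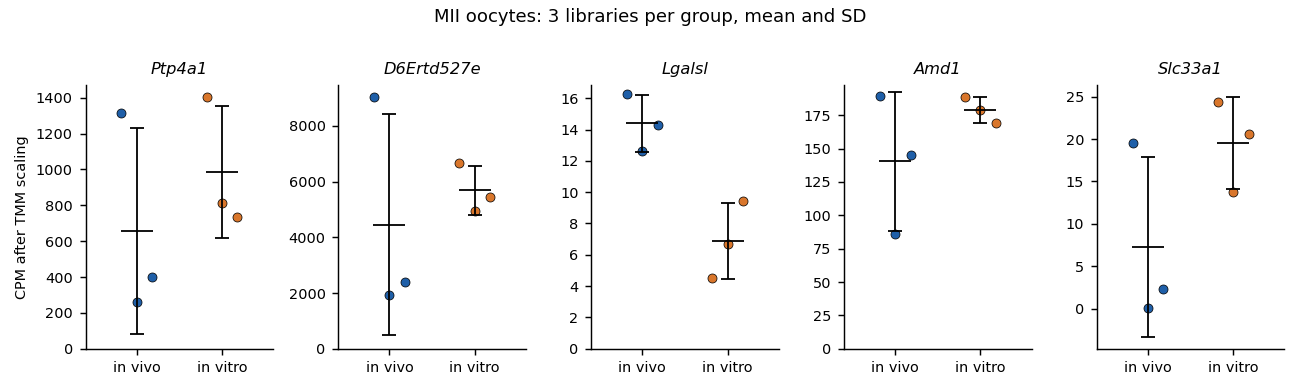
CPM after TMM scaling of the 5 genes in the 6 MII libraries, with 1 point per library, blue for *in vivo* and orange for *in vitro*, and a line with bars for the mean and SD of 3 libraries. *Lgalsl* was lower in each *in vitro* library, and the *in vivo* libraries of *Slc33a1* ranged from 0.120 to 19.5 CPM.

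Among 11 other genes of the PRL phosphatase and CNNM list, edgeR called 0 in each of the 5 LCM comparisons and 0 of the 10 tested in MII oocytes, and DESeq2 also called 0. At an unadjusted edgeR p under 0.05 there was 1 of 11 for primary against primordial *in vivo*, where 11.2% of all genes were so. There was 1 of 11 for the interaction (11.5% of all genes) and 0 in the other 4 comparisons (9.66% to 11.7%). *Ptp4a2*, which encodes PRL-2, had 90, 7080 and 6514 reads in primordial and 21, 1656 and 2372 in primary follicle oocytes *in vivo*. It was thus present where *Ptp4a1* was near the floor, and its fitted log2 fold change was -1.62 (SE 2.06, edgeR adjusted p = 0.836). In MII oocytes *Ptp4a2* was level, at 1309 ± 65.2 CPM *in vivo* and 1279 ± 244 CPM *in vitro*, with a log2 difference of -0.03 (interval -0.73 to 0.66, edgeR adjusted p = 0.986). *Ptp4a3*, which encodes PRL-3, was listed at 0 in all 6 MII libraries and ranged from 0 to 12182 reads in the LCM libraries.

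In the list of polyamine synthesis and turnover, edgeR called 0 of 17 tested genes in each LCM comparison and 1 of 18 in MII oocytes, where 0.35% of all genes were called, with *Amd1* left out. DESeq2 called 2 of the 17 for stage *in vivo* (3.64% of all genes), 1 for stage *in vitro* (2.94%), 2 for culture at the primordial stage (5.3%), 0 for culture at the primary stage (1.66%) and 2 for the interaction (3.62%). In MII oocytes it called 3 of 18, against 2.05% of all genes. The called gene was *Mat2a*, which encodes the enzyme that makes S-adenosylmethionine, the substrate of the *Amd1* product. It had 514, 431 and 648 reads *in vivo* and 1629, 2056 and 1575 *in vitro*, all *in vitro* libraries higher, as for 9.37% of all genes tested. The log2 fold change was 1.64 (SE 0.31, edgeR adjusted p = 0.0458), and it was past the threshold without replicate 1 of the *in vivo* group but not without any of the other 5 libraries, at adjusted p = 0.153 to 0.272, nor with scaling by library size alone, at 0.0521.

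*Odc1*, which encodes ornithine decarboxylase at the head of polyamine synthesis, had 823, 1169 and 1395 reads *in vivo* and 330, 315 and 451 *in vitro*. The log2 fold change was -1.69 (SE 0.35), which edgeR did not call (adjusted p = 0.0759) and DESeq2 called (adjusted p = 0.00072). *Amd2*, the close copy of *Amd1*, had 14, 14 and 25 reads *in vivo* and 117, 136 and 133 *in vitro*. Its log2 fold change of 2.79 (SE 0.62) was not called by edgeR (adjusted p = 0.0922) and was called by DESeq2 (adjusted p = 0.000699), and since the copies share most exon windows, these reads may belong to either gene. *Srm* and *Sms*, the synthases that use the *Amd1* product, differed by -0.18 (interval -2.43 to 2.07, edgeR adjusted p = 0.974) and -0.20 (interval -0.85 to 0.46, edgeR adjusted p = 0.883) on the log2 scale.

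In the LCM oocytes the same enzymes had their own patterns. *Odc1* had 20344, 129 and 2531 reads in primordial follicle oocytes *in vivo* and 38, 98 and 217 in primary, the opposite order of means to *Amd1*, with 1 primordial library of *Odc1* inside the primary range (log2 fold change -5.81, edgeR adjusted p = 0.451). *Sms* had 5803, 6213 and 11575 reads in primordial follicle oocytes *in vivo*, where *Amd1* was not above the floor. *Srm* had 2, 345 and 0 reads there and 756, 62 and 292 in primary follicle oocytes *in vivo*, with overlap.

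**Figure D5:**
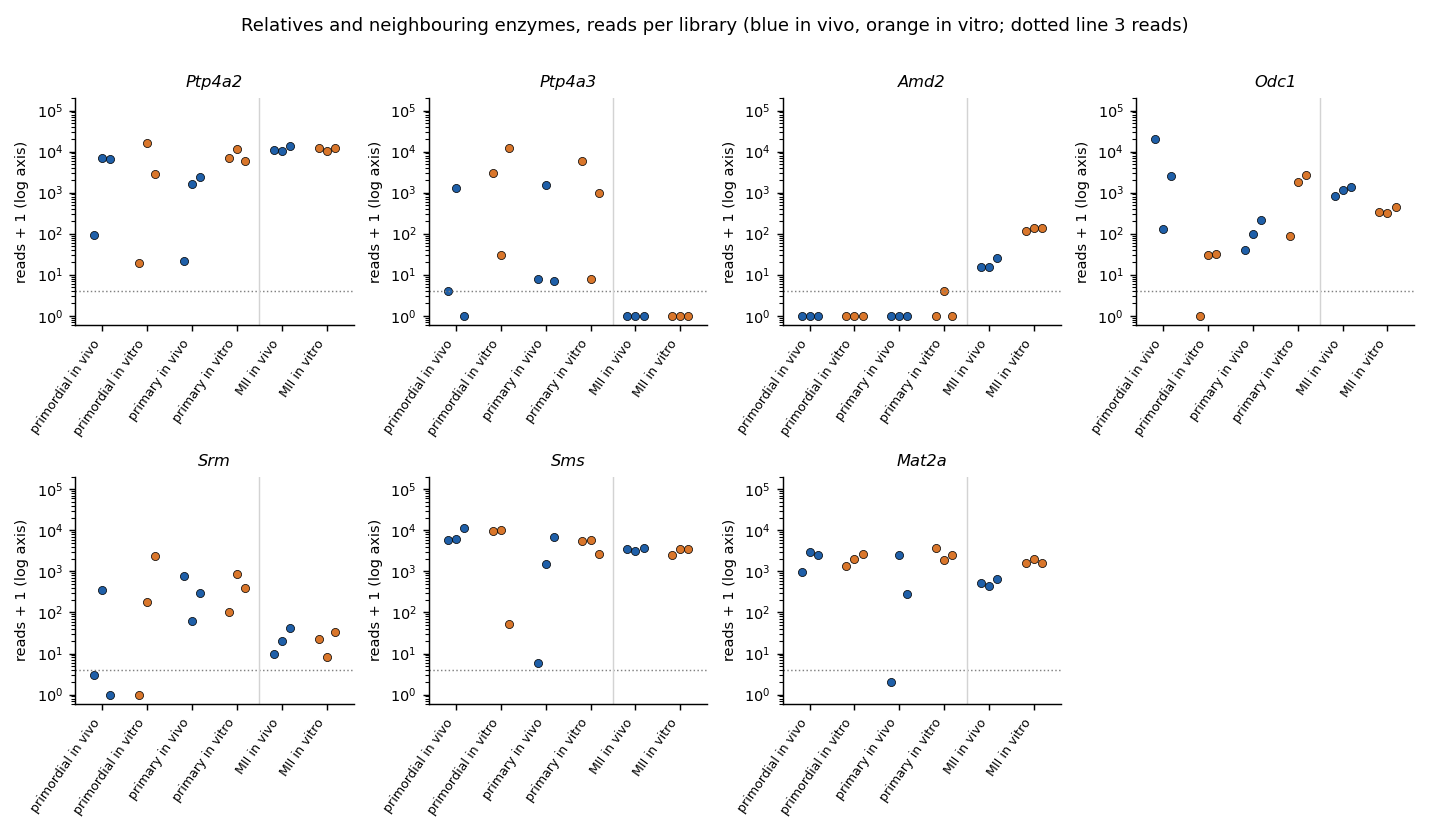
Reads + 1 per library on a log axis for *Ptp4a2*, *Ptp4a3*, *Amd2*, *Odc1*, *Srm*, *Sms* and *Mat2a*, with 1 point per library, blue for *in vivo* and orange for *in vitro*; the dotted line marks 3 reads. *Amd2* was at or under the floor in every LCM library, and *Mat2a* was higher in each MII library *in vitro*.

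The galectin list had 8 other genes tested in LCM oocytes and 4 in MII oocytes, and the list of acetyl-CoA supply and acetylation in the secretory pathway had 9 and 7. edgeR called 0 of either list in any of the 6 comparisons. At an unadjusted edgeR p under 0.05 there were up to 2 galectin genes per comparison and up to 2 genes of the acetyl-CoA list. Of all genes tested, 9.66% to 11.7% were so in the 6 comparisons. DESeq2 called 0 galectin genes and 1 gene of the acetyl-CoA list, in MII oocytes. That list's median log2 fold change in MII oocytes was 1.42, against 0.04 over all genes tested, and for primary minus primordial *in vivo* it was -0.50, against 0.00.

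Across the 12 LCM libraries, the 5 genes did not form 1 profile. The Pearson correlation of log2 CPM was highest between *D6Ertd527e* and *Amd1*, at r = 0.77, and lowest between *Ptp4a1* and *Slc33a1*, at r = -0.74, and among *Ptp4a1*, *D6Ertd527e*, *Lgalsl* and *Amd1* it ranged from 0.35 to 0.77. Of 10410 other genes with a mean of at least 1 CPM, *Naa15* (r = 0.93), *Pak1* (r = 0.85) and *Mtap* (r = 0.85) were most like *Ptp4a1*. *Mtap*, which recycles the by-product of polyamine synthesis, is also in the polyamine list. *Tubb6* (r = 0.97), *Glce* (r = 0.96) and *Khdc3* (r = 0.95) were most like *D6Ertd527e*.

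*Pdcl* (r = 0.92), *Ppm1l* (r = 0.90) and *Myo6* (r = 0.89) were most like *Lgalsl*. For *Amd1* these were *Chpf* (r = 0.91), *Kmt5a* (r = 0.88) and *Epc1* (r = 0.87), and for *Slc33a1* *Hspa12a* (r = 0.94), *Ss18l2* (r = 0.92) and *Shcbp1l* (r = 0.91). *Hspa12a* had 1596 to 5981 reads in primordial and 1 to 7 in primary follicle oocytes *in vivo*. The points of these correlations share libraries and depth, and each is given as a description over 12 libraries of 4 groups.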

How the data were processed

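Per the labels and the methods of the study, the authors trimmed reads with Trim Galore 0.4.1, aligned them with TopHat2 to mm10 and counted reads per gene with featureCounts. The deposited counts were raw and whole, and the authors also deposited TPM for 28252 genes. Strand and multi-mapping settings are not given in the sources used here. Reads without molecular identifiers are not independent molecules, so floors cover counting error only.

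Genes with at least 10 reads in total were scaled by TMM and fitted in R 4.3.3 with edgeR 4.0.16 (robust quasi-likelihood test, Benjamini-Hochberg adjustment), the 12 LCM libraries in 1 fit and the 6 MII libraries in another. A gene was called at an adjusted p under 0.05 and a 2-fold change or more. The SE was not estimated by the fit. It was the absolute log2 fold change divided by the square root of the quasi-likelihood F statistic, and the intervals were built from it. Log2 CPM used a prior count of 2, and log2 TPM a pseudocount of 1. The floor of 3 reads was 0.103 to 0.198 CPM in LCM and 0.301 to 0.409 CPM in MII libraries. Alternatives were DESeq2 1.42.0, limma 3.58.1 on deposited TPM, other scalings and filters, a replicate block and leaving out each library. The fits were tested on simulated data.

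The genes and lists were chosen with earlier results of these data known. Other genes were named as list members that supply or use the product of a selected gene or are its copies, as list genes called, or as the 3 genes of highest Pearson correlation with each selected gene. Of 53715 gene identifiers, 53620 matched GENCODE M21. Promoters were taken from RefSeq on GRCm38.p6 for 5 of 5 genes.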

Additional observations from a re-analysis of the deposited data

Results flagged for a closer look

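In the edgeR fit, a difference in the effect of culture between primary and primordial follicle oocytes was called for 4 of the 5 genes. In all, 16 of 15317 genes were called, or 0.104%. The 5 genes were selected on this contrast, so that the values are a description. *Amd1*, at -12.92, was not called (edgeR adjusted p = 0.160). Without some single libraries none of the 5 was called, as given above. The fitted log2 differences, primary minus primordial, were -12.64 for *Ptp4a1*, -13.29 for *D6Ertd527e*, -15.28 for *Lgalsl* and 18.45 for *Slc33a1*. Leaving out 1 library changed them at most to -10.16, -11.83, -3.38 and 15.48 in the same order, towards 0, the third of these without cultured primordial replicate 3.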

How the results depend on the processing

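Counts of called genes in the LCM comparisons depended on the processing. For primary against primordial *in vivo*, 8 calls became 0 without a filter, 0 with filterByExpr, 557 with DESeq2 and 0 with a replicate block, and 0 to 11 when 1 library was left out. For the same stages *in vitro*, 0 became 450 with DESeq2 and 0 to 2 with a library left out. For culture at the primordial stage, 5 became 0 without a filter, 0 with filterByExpr, 812 with DESeq2, 1 with the replicate block and 0 to 13 with a library left out, and at the primary stage 0 became 1 with size factors (RLE), 254 with DESeq2 and 0 to 4. For the interaction, 16 became 1 without a filter, 0 with filterByExpr, 554 with DESeq2, 0 with the replicate block and 0 to 20. In MII oocytes 60 became 263 without a filter, 351 with DESeq2 and 11 to 378, the highest without replicate 1 *in vivo*. The cause was not tested.

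The split of higher to lower calls moved with scaling from 5 and 3 to 8 and 3 (RLE) or 3 and 3 (library size alone) for stage *in vivo*, and from 11 and 5 to 8 and 9 or 10 and 2 for the interaction. Scaling moved the median log2 fold change of all genes by -0.31 to 0.37. Signs reversed for *D6Ertd527e* under culture at the primary stage, at 0.36 with library size alone and -0.75 to 0.20 with a library left out. With a library left out, values also crossed 0 for primary against primordial *in vitro* (*Ptp4a1* -2.46 to 0.60, *D6Ertd527e* -1.44 to 0.61, *Lgalsl* -6.39 to 8.03), for *Lgalsl* under culture at the primordial stage (-2.76 to 10.12) and in MII oocytes for *D6Ertd527e* (-0.0075 to 1.39), *Ptp4a2* (-0.13 to 0.12) and *Srm* (-0.74 to 0.43).

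Deviations of same-numbered libraries correlated at -0.066 to 0.0897 in LCM and -0.0241 to 0.0159 in MII oocytes. Libraries of different numbers correlated at -0.0776 to 0.0895 and -0.0375 to 0.0285, so that no pairing by number was seen. With replicates this variable, such values cannot show whether same-numbered pools share animals. With the replicate block, 85 genes and 0 of the 5 were called in MII oocytes. The biological coefficient of variation was 2.02 in LCM and 0.726 in MII libraries.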
